A study of Mus musculus with 6 samples.

Results

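The genes described here encode the Wnt ligands, their Frizzled receptors and co-receptors, and the core of the beta-catenin pathway. They were chosen by symbol, as every gene named Wnt or Fzd with a number, together with a fixed set of co-receptors, cytoplasmic components, transcription factors and inhibitors. The rule found 52 of the 25701 genes in the count table, of which 19 are ligands, 15 are receptors and co-receptors, 8 belong to signal transduction and the destruction complex, 4 are transcription factors and 6 are inhibitors. The values come from bulk RNA-seq of CD11b+ cells purified from TC1 lung carcinoma tumors, with 3 samples from MCT2 KO mice and 3 from MCT2 CO mice. MCT2 is the lactate and pyruvate transporter encoded by Slc16a7, and the comparison asks how its loss in the host relates to the RNA content of these tumor-derived myeloid cells. Mice of both groups carried MCT2 loxP/loxP alleles and Cre (mCre-Tg, tamoxifen-inducible) on a C57BL/6 background. MCT2 KO mice received tamoxifen and MCT2 CO mice received vehicle, so tamoxifen exposure and MCT2 deletion cannot be told apart in these samples. Deletion was systemic and not limited to macrophages. Treatment began at 8 weeks of age, TC1 cells were injected under the skin 2 days after the last treatment, and tumors grew for 24 days. TC1 cells were not themselves altered. The sample labels give lung as the tissue and macrophage as the cell type, while the cells came from subcutaneous tumors.

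Wnt proteins are secreted lipid-modified ligands that bind Frizzled receptors on nearby cells. In the canonical branch, Lrp5 or Lrp6 joins the complex, Dishevelled proteins are recruited, and the destruction complex of Axin, Apc and Gsk3b stops marking beta-catenin for degradation, so that beta-catenin can act in the nucleus with factors of the Tcf and Lef family. In non-canonical branches, ligands such as Wnt5a act through Ror and Ryk receptors on cell polarity, migration and calcium, and in tumors both stromal cells and macrophages are known sources of Wnt5a.

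The libraries held between 24863611 and 31713704 assigned counts. Slc16a7, the targeted gene, gave 481, 287 and 298 counts in the MCT2 CO samples. It gave 196, 162 and 133 in the MCT2 KO samples. Its level was 12.8 ± 2.84 CPM (SD, n = 3, where CPM are counts scaled by each sample's TMM-adjusted total) in MCT2 CO and 6.18 ± 1.78 CPM in MCT2 KO, with no overlap between the groups. This gave a log2 fold change (MCT2 KO over MCT2 CO) of -1.05 ± 0.24 (SE). With edgeR it did not pass after Benjamini-Hochberg adjustment across the whole table (adjusted p = 0.370), while DESeq2 on the same genes gave an adjusted p of 0.00952. MCT2 CO replicate 3 and MCT2 KO replicate 2 each lay apart from the other samples on a principal component. Macrophage markers were abundant, with a summed level over 16 genes of 9374 to 13642 CPM in MCT2 CO and 10006 to 18648 CPM in MCT2 KO. Itgam, which encodes CD11b itself, had 1 count in all, and 99.1% of its exon bases lie inside the span of another listed gene. It therefore could not serve as a check of the selection.

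Of the 52 pathway genes, 37 had enough counts to be tested and 15 did not. A gene was tested when its CPM matched about 10 counts or more in at least 3 samples. Of those tested, 34 were above that level in all 6 samples. The 1 gene above it in all samples of only 1 group was Sfrp2. It was above it in every MCT2 CO sample but below it in MCT2 KO replicate 1, at 9 counts. The 15 that were not tested included 12 of the ligands. Wnt6 had 51 counts over all 6 samples, Wnt16 had 45, Wnt10a had 22, and Wnt4 had 12. The totals were 6 counts for Wnt1, 5 for Wnt8b, 3 for Wnt2, 2 each for Wnt3 and Wnt8a, and 1 for Wnt9b. The 3 Wnt2 counts were all in MCT2 CO replicate 3. Wnt3a and Wnt7a had 0 counts, which at this depth allows a level of up to 0.0183 CPM over the 6 samples combined, from counting error alone. Among the receptors, Fzd9 had 21 counts and Fzd10 had 1. The inhibitor Nkd1, itself a common transcriptional target of beta-catenin signaling, had 6. The ligands that most often start canonical signaling (Wnt1, Wnt3 and Wnt3a) were thus at or near 0 in both groups.

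Levels differed widely within each role. To compare genes, CPM were divided by the length of each gene's exons in kilobases. This scale takes the counted reads to lie in exons. The listed gene lengths are whole spans, so intron reads may also have been counted, and ranks between genes are uncertain for that reason. For Ror2 the exons make up 4242 of 176813 span bases, and for Fzd1 all of 4197. On this scale Wnt5a, the main non-canonical ligand, had a median of 7.19 CPM per kilobase over the 6 samples, with a range of 5.9 to 10.1. No other tested ligand passed 0.761 CPM per kilobase in any sample. Wnt9a followed with a median of 0.583, then Wnt7b with 0.448 and Wnt5b with 0.311. The ranges of Wnt9a and Wnt7b overlapped, as did those of Wnt7b and Wnt5b. The receptors were led by Ryk, a receptor-like pseudokinase that binds Wnt5a, at a median of 17.5 CPM per kilobase, with the co-receptor Lrp5 at 13.6 and Fzd1 at 13.3. The ranges of these 3 genes overlapped. Lrp6 had a median of 8.17 and Ror2, the tyrosine kinase-like receptor of Wnt5a, had 8.07. Fzd7 had a median of 5.99, Fzd6 had 5.01, Fzd5 had 3.02, Fzd2 had 2.62 and Fzd8 had 1.38. Fzd4 and Fzd3 were lowest of the tested Frizzled genes at 0.838 and 0.837. Ror1, the paralog of Ror2, had a median of 0.0695.

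On the same scale, the intracellular components had higher levels than most ligands and receptors. Ctnnb1 (beta-catenin) had a median of 39.6 CPM per kilobase of exon, Axin1 had 31.1, Dvl1 had 20.1 and Gsk3b had 14.1. Axin2, a feedback inhibitor that beta-catenin itself induces in many tissues, had a median of 0.246. Of the transcription factors, Tcf7 had 6.89, Tcf7l2 had 4.9, Tcf7l1 had 3.53 and Lef1 had 0.339. For Ctnnb1, 63.75% of the exon bases lie inside the span of Ulk4. For Dvl2, 32.07% lie inside that of Acadvl, and for Fzd5, 17.83% lie inside that of Gm38058. The levels of these 3 genes are uncertain for that reason as well.

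**Figure D1:**
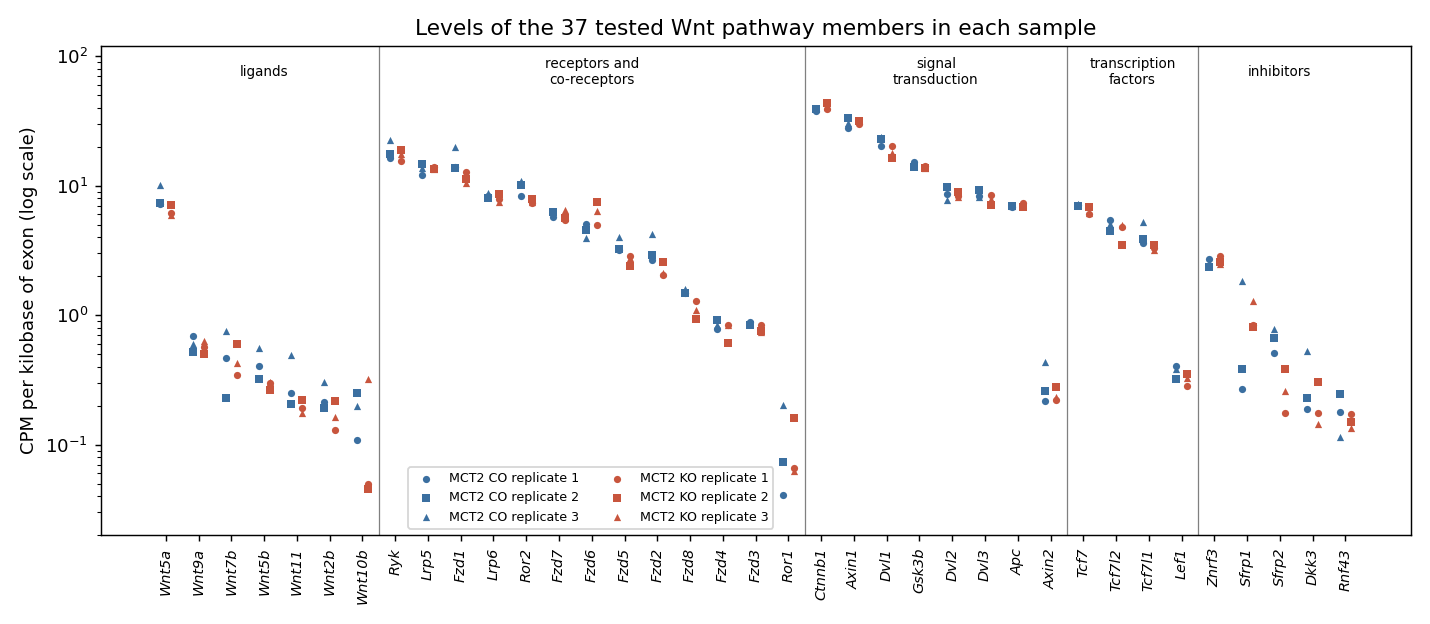
Level of each of the 37 tested genes in each sample, in CPM per kilobase of exon on a log scale, grouped by role; blue symbols are MCT2 CO and red symbols are MCT2 KO, with 1 symbol per sample. Wnt5a lies between 5.9 and 10.1 in the 6 samples, while every other ligand lies at or below 0.761. The scale takes the counted reads to lie in exons, so ranks between genes are uncertain.

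No pathway gene passed the test between MCT2 KO and MCT2 CO. A call needed an edgeR quasi-likelihood adjusted p no higher than 0.05 with a log2 fold change of 0.58 or more in either direction, and 0 of the 37 tested genes were called, beside 0% of the 13485 genes tested in all (percent called 0). DESeq2 and limma-voom called 0 of the 37 as well, where DESeq2 on all genes with a count called 83 of 14202 (0.584%). The smallest adjusted p among the 37 by edgeR was 0.426, for Sfrp2. Without adjustment, 10 genes had a p under 0.05. Of these, 9 were lower in MCT2 KO, 24.3% of those tested beside 5.60% of all genes. The other, Fzd6, was higher, 2.7% beside 3.77% of all genes. Of the 37 log2 fold changes, 30 were below 0 and 7 above, with a median of -0.16, while over all genes 6732 were below 0 and 6753 above, with a median of 0.00. All 3 MCT2 KO samples lay below all 3 MCT2 CO samples for 11 genes, 29.7% of those tested beside 8.77% of all genes. They lay above for 0 genes, beside 7.07% of all genes. For a single gene the exact two-sided permutation test cannot give a p below 0.1 with 3 samples against 3. MCT2 CO replicate 3 held the highest of the 6 values for 20 of the 37 genes, 54.1% beside 24.9% of all genes tested. Without it, edgeR gave 6 genes at an unadjusted p under 0.05. Of these, 5 were lower and 1 was higher, beside 3.33% and 2.47% of all genes. The higher gene was then Sfrp1, while Fzd6, Wnt5a, Fzd2, Dvl1 and Tcf7l1 no longer reached that level. The log2 fold change was then below 0 for 25 genes and above 0 for 12. Without MCT2 KO replicate 3 there were also 6 at that level, 5 lower and 1 higher, beside 3.11% and 2.81% of all genes. Wnt10b was then among the lower genes, and Fzd6 was the higher one. Without both MCT2 CO replicate 3 and MCT2 KO replicate 2 there were 5 (4 lower and 1 higher), beside 4.19% and 5.06%. The higher gene there was Sfrp1. The labels number the replicates without naming animals, so the spread behind every p-value may be partly technical.

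**Figure D2:**
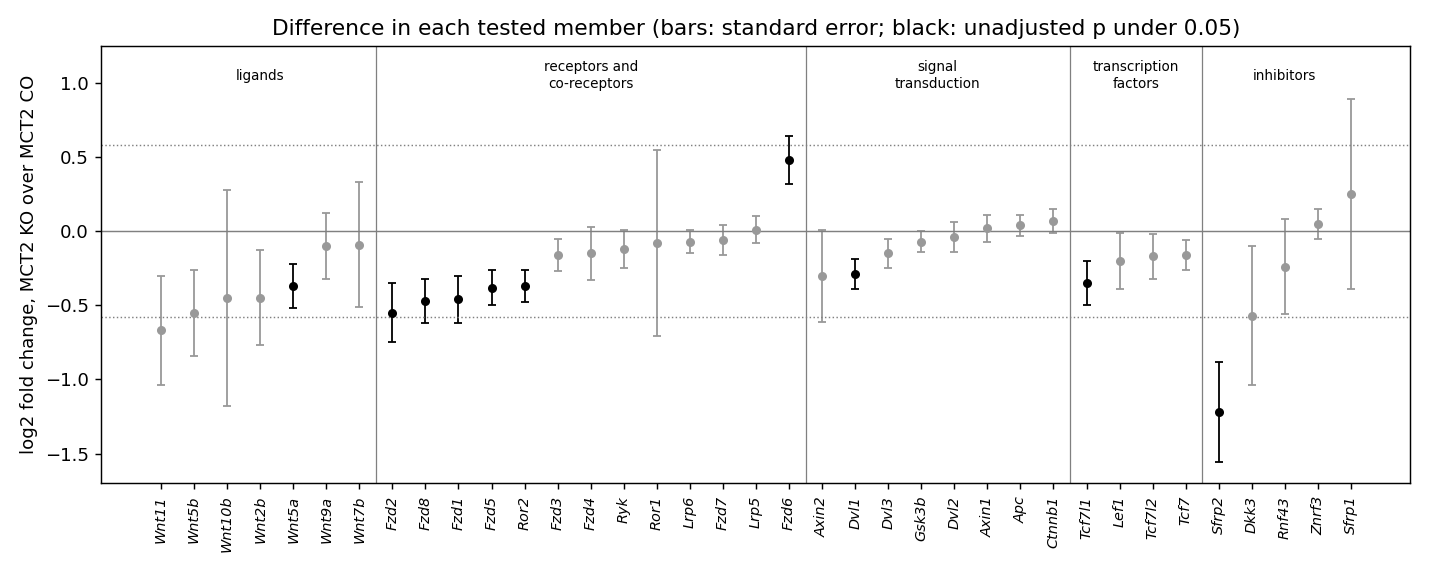
Log2 fold change of MCT2 KO over MCT2 CO for each of the 37 tested genes, by role, with bars of 1 standard error; dotted lines mark log2 fold changes of 0.58 in either direction, and black marks an unadjusted p under 0.05 in edgeR. Of the 10 black points, 9 lie below 0 and that of Fzd6 lies above.

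All 7 tested ligands had a log2 fold change below 0, with a median of -0.45. With limma-voom 6 of the 7 lay below 0, and leaving out 1 library at a time gave 6 or 7. Without both MCT2 CO replicate 3 and MCT2 KO replicate 2, 5 lay below 0. Wnt5a had 56.6, 57.8 and 79.4 CPM in MCT2 CO and 48, 55.9 and 46.2 CPM in MCT2 KO. The groups did not overlap, but the highest MCT2 KO value and the lowest MCT2 CO value lay close together. Its log2 fold change was -0.37 ± 0.15 (SE, edgeR adjusted p = 0.509), and without MCT2 CO replicate 3 it was -0.19. Wnt5b, a close paralog of Wnt5a, had 1.07, 0.846 and 1.47 CPM in MCT2 CO and 0.797, 0.706 and 0.803 CPM in MCT2 KO. These groups did not overlap either, at a level far below that of Wnt5a. The log2 fold change of Wnt5b was -0.55 ± 0.29 (edgeR adjusted p = 0.591), and without MCT2 CO replicate 3 it was -0.32. Wnt11, another ligand of the non-canonical branch, had a log2 fold change of -0.67 ± 0.37 that came to -0.20 without MCT2 CO replicate 3, where it was highest at 2.03 CPM. Wnt2b and Wnt10b, ligands of the canonical branch, each had -0.45, with standard errors of 0.32 and 0.73. Without MCT2 CO replicate 3 that of Wnt2b was -0.24, and over the libraries left out in turn that of Wnt10b ran from -1.93 to 0.02. Wnt10b ranged from 0.153 to 1.08 CPM within MCT2 KO, on both sides of the MCT2 CO samples. Wnt9a had a log2 fold change of -0.10 ± 0.22 and Wnt7b of -0.09 ± 0.42, which was 0.38 without MCT2 CO replicate 3.

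Of the 13 tested receptors, 11 had a log2 fold change below 0, with a median of -0.15. Without MCT2 CO replicate 3, 9 lay below 0 and 4 above. The groups did not overlap for 6 receptors, all lower in MCT2 KO, 46.2% beside 8.77% of all genes. Fzd1, a Frizzled receptor of both canonical and non-canonical ligands, had 58.5, 57.7 and 83.4 CPM in MCT2 CO and 53.6, 46.9 and 44.2 CPM in MCT2 KO. Every MCT2 KO value lay below every MCT2 CO value, with MCT2 CO replicate 3 well above the rest. Its log2 fold change was -0.46 ± 0.16 (edgeR adjusted p = 0.445) and was -0.27 without that library. Fzd2, which can pair with Ror2 in Wnt5a signaling, had 9.81, 10.7 and 15.6 CPM in MCT2 CO and 7.5, 9.36 and 7.71 CPM in MCT2 KO. The pattern was that of Fzd1, and the log2 fold change was -0.55 ± 0.20 (edgeR adjusted p = 0.488), or -0.32 without MCT2 CO replicate 3. Fzd5, a Frizzled receptor found on myeloid cells, had 22, 22.4 and 27.8 CPM in MCT2 CO and 19.7, 16.7 and 19 CPM in MCT2 KO. All 3 MCT2 KO samples were again lower, with a log2 fold change of -0.38 ± 0.12 (edgeR adjusted p = 0.438).

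Fzd8, a receptor of the canonical branch, had 8.81, 8.88 and 9.56 CPM in MCT2 CO and 7.63, 5.59 and 6.55 CPM in MCT2 KO. Here the MCT2 CO samples were close together and the spread lay in MCT2 KO. Its log2 fold change was -0.47 ± 0.15 (edgeR adjusted p = 0.442), and it was -0.43 without MCT2 CO replicate 3. Ror2 had 35.2, 42.8 and 46.1 CPM in MCT2 CO and 31.2, 33.3 and 31.6 CPM in MCT2 KO. The groups did not overlap, and the MCT2 KO samples spanned a narrower range than the MCT2 CO samples. The log2 fold change of Ror2 was -0.37 ± 0.11 (edgeR adjusted p = 0.430), and leaving out any 1 library gave values from -0.47 to -0.28. Fzd3, a receptor of the planar polarity branch, had 11.4, 10.7 and 11.1 CPM in MCT2 CO and 10.7, 9.67 and 9.44 CPM in MCT2 KO. The lowest MCT2 CO value and the highest MCT2 KO value were the same to 3 digits, and the log2 fold change was -0.16 ± 0.11 (edgeR adjusted p = 0.692).

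Fzd6, a receptor best known in planar polarity and as a repressor of canonical signaling, was the exception in direction. It had 24.2, 21.8 and 19.1 CPM in MCT2 CO and 24, 35.8 and 30.6 CPM in MCT2 KO. MCT2 KO replicates 2 and 3 lay above all MCT2 CO samples, while MCT2 KO replicate 1 lay among them. Across both groups the log2 fold change was 0.48 ± 0.16 (edgeR adjusted p = 0.444). The co-receptors of the canonical branch showed small differences. Lrp6 had 113, 111 and 120 CPM in MCT2 CO and 108, 117 and 103 CPM in MCT2 KO, with a log2 fold change of -0.07 ± 0.08 (edgeR adjusted p = 0.823), and its groups overlapped. Lrp5 had a log2 fold change of 0.01 ± 0.09. The remaining receptors had log2 fold changes of -0.15 ± 0.18 for Fzd4, -0.12 ± 0.13 for Ryk, -0.08 ± 0.63 for Ror1 and -0.06 ± 0.10 for Fzd7. Without MCT2 CO replicate 3, in which Ror1 was highest at 1.17 CPM, that of Ror1 was 0.81. Without MCT2 KO replicate 2, in which Fzd4 was lowest at 4.08 CPM, that of Fzd4 was -0.00, and that of Ryk was 0.03 without MCT2 CO replicate 3.

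**Figure D3:**
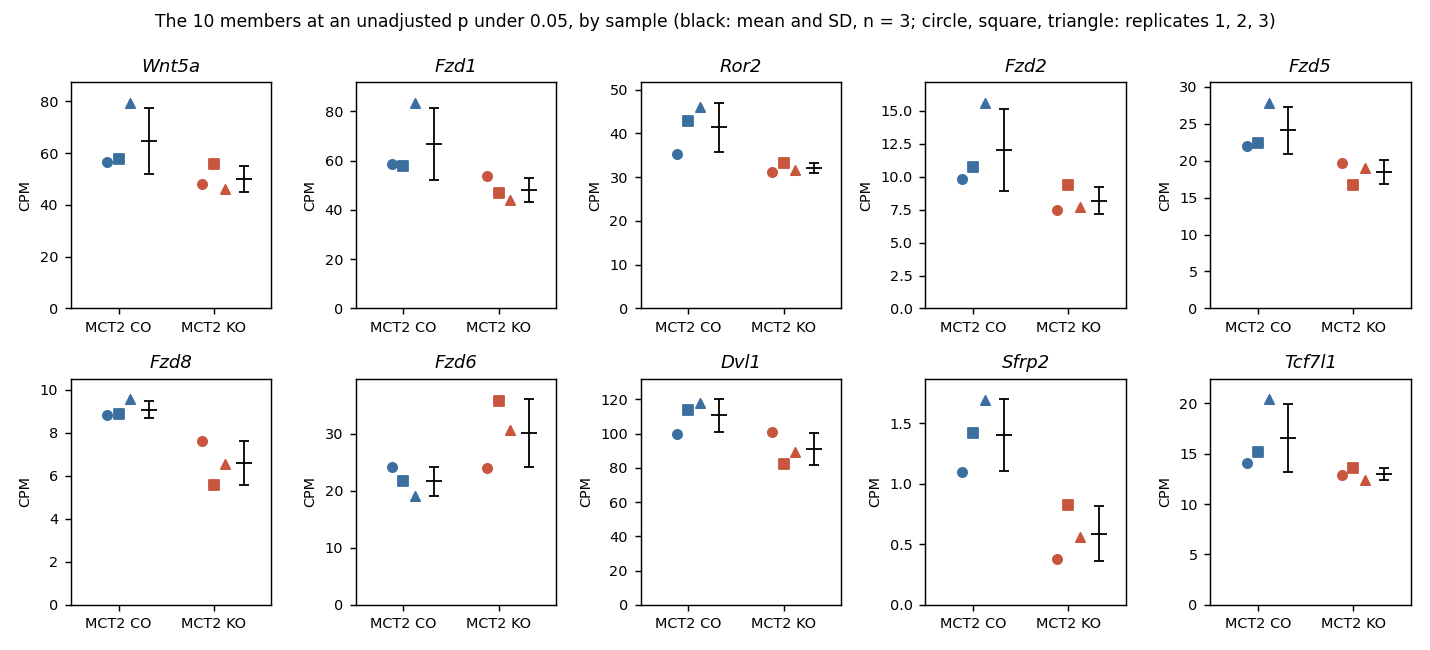
CPM by sample of the 10 pathway genes at an unadjusted p under 0.05, with MCT2 CO in blue and MCT2 KO in red, a symbol for each replicate, and the mean and SD (n = 3) in black. Fzd6 is higher on average in MCT2 KO and the other 9 genes are lower, and the MCT2 CO replicate 3 triangle is the highest point for each of those 9.

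The cytoplasmic components differed less. Of the 8 tested, 5 had a log2 fold change below 0 and 3 above, with a median of -0.05. The groups did not overlap for 0 of the 8, beside 8.77% of all genes lower and 7.07% higher. Ctnnb1 had 197, 204 and 208 CPM in MCT2 CO and 204, 226 and 209 CPM in MCT2 KO. The groups overlapped, with a log2 fold change of 0.07 ± 0.08 (edgeR adjusted p = 0.806). Dvl1, a Dishevelled protein that carries the signal from Frizzled receptors, had 100, 114 and 118 CPM in MCT2 CO and 101, 82.4 and 89.3 CPM in MCT2 KO. MCT2 KO replicate 1 lay within the MCT2 CO range and the other MCT2 KO samples below it, and the log2 fold change was -0.29 ± 0.10 (edgeR adjusted p = 0.480). Its paralogs had -0.15 ± 0.10 (Dvl3) and -0.04 ± 0.10 (Dvl2). In the destruction complex, Gsk3b, the kinase that marks beta-catenin, had -0.07 ± 0.07, the scaffold Axin1 had 0.02 ± 0.09 and Apc had 0.04 ± 0.07. Axin2 had 1.2, 1.42 and 2.37 CPM in MCT2 CO and 1.22, 1.53 and 1.29 CPM in MCT2 KO. All its MCT2 KO values lay between the lowest and highest MCT2 CO values. Its log2 fold change of -0.30 ± 0.31 (edgeR adjusted p = 0.786) turned to 0.05 without MCT2 CO replicate 3.

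All 4 transcription factors had a log2 fold change below 0, with a median of -0.19. Tcf7l1, which acts mostly as a repressor of pathway targets, had 14.1, 15.2 and 20.4 CPM in MCT2 CO and 12.9, 13.6 and 12.4 CPM in MCT2 KO. The groups did not overlap, with a log2 fold change of -0.35 ± 0.15 (edgeR adjusted p = 0.533), or -0.17 without MCT2 CO replicate 3. Tcf7, also known as Tcf1 and best studied in T cells, had 18.7, 18.2 and 19.1 CPM in MCT2 CO and 15.8, 18 and 16.3 CPM in MCT2 KO. The values did not overlap, but MCT2 KO replicate 2 lay just under the MCT2 CO samples, and the log2 fold change was -0.16 ± 0.10 (edgeR adjusted p = 0.644). Tcf7l2, the family member at the highest CPM, had 47.6, 39.2 and 44.3 CPM in MCT2 CO and 42.3, 30.5 and 43.7 CPM in MCT2 KO. Lef1 had 3.57, 2.81 and 3.39 CPM in MCT2 CO and 2.52, 3.1 and 2.85 CPM in MCT2 KO. For both genes the groups overlapped, with log2 fold changes of -0.17 ± 0.15 for Tcf7l2 and -0.20 ± 0.19 for Lef1. That of Tcf7l2 was -0.02 without MCT2 KO replicate 2. The summed level of 15 T cell markers was 68.3, 104 and 74.3 CPM in MCT2 CO and 101, 33.3 and 147 CPM in MCT2 KO. The part of T cell RNA in the values of Tcf7 and Lef1 was not tested.

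The inhibitors were split. Sfrp2, a secreted Frizzled-related protein that binds Wnt ligands, had 33, 37 and 45 counts in MCT2 CO and 9, 27 and 14 counts in MCT2 KO. In CPM these were 1.1, 1.42 and 1.69 against 0.377, 0.829 and 0.562. Every MCT2 KO sample lay below every MCT2 CO sample. The 9 counts in MCT2 KO replicate 1 were under the level set for testing, which all MCT2 CO samples passed. The log2 fold change was -1.22 ± 0.34 (edgeR adjusted p = 0.426), the lowest of the 37, and leaving out any 1 library gave values from -1.56 to -0.98. Its paralog Sfrp1 had 1.17, 1.69 and 7.94 CPM in MCT2 CO and 3.65, 3.56 and 5.58 CPM in MCT2 KO. The MCT2 CO samples lay on both sides of the MCT2 KO samples. The log2 fold change of Sfrp1 was 0.25 ± 0.64 (edgeR adjusted p = 0.925) and was 1.58 without MCT2 CO replicate 3. Dkk3, a secreted protein of the Dickkopf family, had a log2 fold change of -0.57 ± 0.47 that came to 0.02 without the same library. The ubiquitin ligases that remove Frizzled receptors from the membrane had -0.24 ± 0.32 (Rnf43) and 0.05 ± 0.10 (Znrf3).

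Other genes of the pathway were taken from 6 further lists with 151 genes in the table, of which 130 were tested. By edgeR 0 of these were called, with 10 lower and 2 higher at an unadjusted p under 0.05. These were 7.69% and 1.54% of those tested, beside 5.60% and 3.77% of all genes. DESeq2 on all genes with a count called 2, Camk2b and Nrcam, beside 0.584% of all genes. Of the 130 log2 fold changes, 89 were below 0 and 41 above, with a median of -0.07. Groups did not overlap for 14 lower and 7 higher genes, 10.8% and 5.38% of those tested, beside 8.77% and 7.07% of all genes. The lists for ligand secretion, for further inhibitors and for the destruction complex had 0 genes at an unadjusted p under 0.05. Among 18 tested transcriptional targets, 4 were lower and 1 was higher at that level, 22.2% and 5.56% beside 5.60% and 3.77% of all genes. Twist1, a mesenchymal transcription factor, had a log2 fold change of -0.48 ± 0.09 and Snai2 of -0.45 ± 0.14, with edgeR adjusted p of 0.370 and 0.433. Fosl1, a subunit of AP-1, had -0.42 ± 0.10, and 57.21% of its exon bases lie inside another gene's span. The adhesion molecule Nrcam was higher, with 21.3, 26.5 and 28.9 CPM in MCT2 CO and 31.6, 78.5 and 47.5 CPM in MCT2 KO. Its log2 fold change was 1.04 ± 0.30 (edgeR adjusted p = 0.426).

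Camk2b, a calcium-dependent kinase subunit of the calcium branch, had 41.7, 73.6 and 57.2 CPM in MCT2 CO and 26.9, 28.1 and 33.8 CPM in MCT2 KO. The groups did not overlap, with a log2 fold change of -0.96 ± 0.20 (edgeR adjusted p = 0.370). Its paralog Camk2g had 0.21 ± 0.08. Groucho-type co-repressors bind Tcf factors when beta-catenin is absent. Their log2 fold changes were -0.37 ± 0.11 for Tle1, -0.24 ± 0.09 for Tle3, -0.86 ± 0.31 for Tle2 and -0.06 ± 0.10 for Tle4. Tle5, of the same gene family, had -0.10 ± 0.10. The groups did not overlap for Tle1, Tle2 and Tle3 and overlapped for Tle4 and Tle5. Without MCT2 CO replicate 3 the log2 fold change of Tle2 was -0.37. The co-repressor Ctbp2 had -0.84 ± 0.31, with 93.78% of its exon bases inside another gene's span.

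Markers of other cell types were read in the same samples. The summed level of 18 fibroblast markers was 3713, 4064 and 5725 CPM in MCT2 CO and 3337, 3398 and 3319 CPM in MCT2 KO, with no overlap. All 18 were tested and 14 had a log2 fold change below 0, with a median of -0.47. Of the 18, 9 were lower at an unadjusted p under 0.05, 50% beside 5.60% of all genes. By edgeR 0 were called, while DESeq2 on all genes with a count called 3 (Col3a1, Dcn and Lum), beside 0.584% of all genes. Collagen Col3a1 had 1187, 1252 and 2028 CPM in MCT2 CO and 1017, 805 and 821 CPM in MCT2 KO, and the proteoglycan Lum had a log2 fold change of -1.56 ± 0.37. MCT2 CO replicate 3 was highest for 15 of the 18 fibroblast markers. It was highest for 20 of the 37 tested pathway genes, 54.1% beside 24.9% of all genes tested. The paper states that separating implanted TC1 cells from host stromal cells would need lineage tracing or copy-number analysis. Host fibroblasts and TC1 cells as sources of these marker values cannot be told apart here. The part of RNA from either source in the values of Wnt5a, Fzd1, Fzd2, Fzd5, Fzd8, Ror2, Tcf7l1 and Sfrp2 was not tested. The other 4 fibroblast markers lay above 0, with log2 fold changes of 0.53 ± 0.34 for Thy1, 0.06 ± 0.10 for Prrx1, 0.04 ± 0.15 for Fbln1 and 0.01 ± 0.20 for Fap. In these bulk samples, fewer cells of a type and less RNA per cell cannot be told apart. The groups overlapped for all 16 macrophage markers, while 8.77% of all genes lay without overlap in the lower direction and 7.07% in the higher. Of the 16 log2 fold changes, 15 were above 0, with a median of 0.19. Of these 16, Lyz2 was higher at an unadjusted p under 0.05 (6.25% beside 3.77% of all genes), with a log2 fold change of 0.67 ± 0.21. The 13 endothelial markers summed to 231 to 240 CPM in MCT2 CO and 230 to 299 CPM in MCT2 KO. Of their log2 fold changes, 10 were above 0 and 3 below, with a median of 0.33. At an unadjusted p under 0.05 there were 0 of 13, beside 5.60% of all genes lower and 3.77% higher. The 13 neutrophil markers summed to 111 to 127 CPM and 117 to 211 CPM. Of 9 tested, 6 were higher at an unadjusted p under 0.05, 66.7% beside 3.77% of all genes. DESeq2 called 5, beside 0.584% of all genes. The 10 B cell markers summed to 81.1 to 97.8 CPM and 24.3 to 110 CPM. Of 8 tested, 4 were lower at an unadjusted p under 0.05, 50% beside 5.60% of all genes. DESeq2 called 3 of the 10, beside 0.584% of all genes. Of 15 T cell markers, 1 was higher at an unadjusted p under 0.05, 6.67% beside 3.77% of all genes. The 10 epithelial markers summed to 14.5 to 21.4 CPM and 19.2 to 34 CPM, and Cldn3 was at 0 in all samples.

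**Figure D4:**
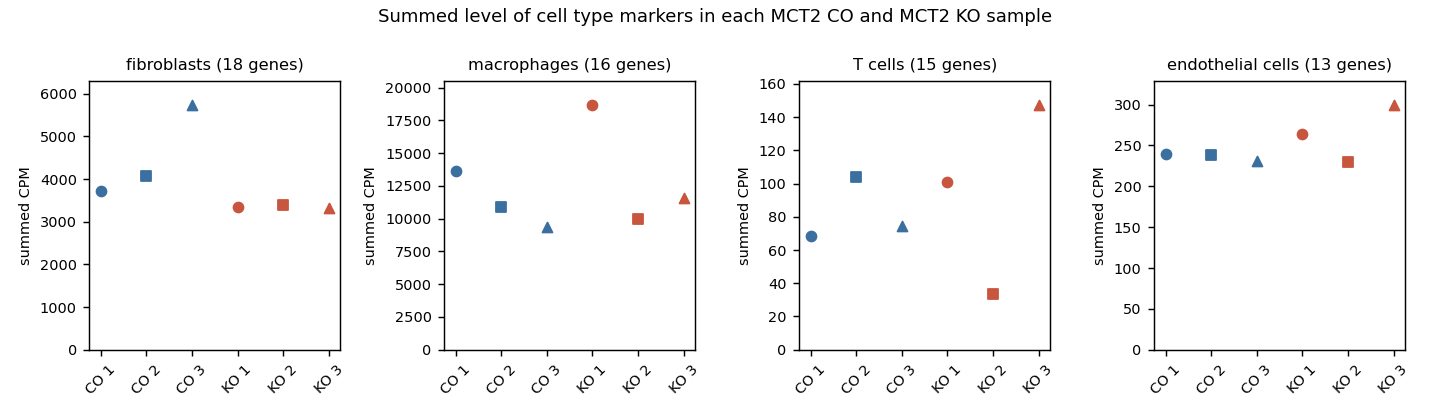
Summed CPM of cell type markers in each sample, for fibroblasts, macrophages and monocytes, T cells and endothelial cells, with MCT2 CO in blue and MCT2 KO in red. The fibroblast sum is 3713 to 5725 in MCT2 CO and 3319 to 3398 in MCT2 KO, while the other 3 lists overlap between the groups.

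The start regions of the pathway genes were read for 2 short motifs. RefSeq start sites on GRCm38.p6 gave windows of the 250 bases before the start for 37 of the 52 genes. The core of the Tcf and Lef binding site was searched as TCAAAG, with CTTTGA on the other strand, and the GC box bound by Sp factors as GGGCGG, with CCGCCC on the other strand. The Tcf and Lef core was in 4 of the 37 windows (Fzd1, Gsk3b, Ror1 and Wnt11), 10.8% beside 13.8% of all 32851 windows. A GC box was in 29, 78.4% beside 32.7% of all windows. The windows of these genes had a median of 71.6% G and C, beside 52.4% for all windows. Shown here are windows of 3 receptors whose groups did not overlap and of Axin2, the feedback target, with the motifs in capitals. The Fzd1 window lies at chr5:4758217-4758466 on the minus strand and holds the Tcf and Lef core near its far end and no GC box. It had 51.2% G and C. The Fzd5 window lies at chr1:64737751-64738000 on the minus strand and holds 9 GC boxes. The Ror2 window lies at chr13:53286125-53286374 on the minus strand and holds 4 GC boxes. The Axin2 window lies at chr11:108920099-108920348 on the plus strand, with 2 GC boxes and no match to TCAAAG. Wnt5a, Fzd2 and Fzd8 were not matched to a window. A match is a string of letters and was not tested as a binding site.
Fzd1: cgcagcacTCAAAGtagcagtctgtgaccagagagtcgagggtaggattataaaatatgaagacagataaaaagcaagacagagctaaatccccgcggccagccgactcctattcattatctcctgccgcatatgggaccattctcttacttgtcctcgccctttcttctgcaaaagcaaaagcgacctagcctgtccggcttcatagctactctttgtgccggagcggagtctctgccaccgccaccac
Fzd5: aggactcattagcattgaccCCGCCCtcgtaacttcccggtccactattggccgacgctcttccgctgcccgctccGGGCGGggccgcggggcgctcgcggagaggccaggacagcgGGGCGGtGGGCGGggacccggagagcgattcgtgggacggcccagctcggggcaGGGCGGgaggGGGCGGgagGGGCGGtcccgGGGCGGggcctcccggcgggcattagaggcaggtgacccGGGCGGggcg
Ror2: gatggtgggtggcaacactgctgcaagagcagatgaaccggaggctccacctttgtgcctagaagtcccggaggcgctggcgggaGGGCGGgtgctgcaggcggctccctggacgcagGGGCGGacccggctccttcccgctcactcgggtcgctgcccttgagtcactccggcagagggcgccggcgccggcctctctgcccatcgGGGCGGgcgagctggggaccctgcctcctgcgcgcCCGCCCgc
Axin2: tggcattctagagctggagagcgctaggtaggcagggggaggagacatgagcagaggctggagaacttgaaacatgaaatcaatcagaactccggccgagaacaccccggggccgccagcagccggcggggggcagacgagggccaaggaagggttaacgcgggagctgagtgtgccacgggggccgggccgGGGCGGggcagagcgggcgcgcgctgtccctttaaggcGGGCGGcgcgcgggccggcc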

How the data were processed

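RNA from CD11b+ cells of TC1 tumors, positively selected on magnetic beads, was sequenced from poly-A enriched stranded libraries. Per the labels, reads were checked with FastQC 0.12.0 and MultiQC 1.28, aligned with STAR 2.7.11b to GRCm38 and counted with featureCounts 2.1.1. The authors deposited raw counts per gene, and the strand setting is not given in the sources used here. All 25701 listed gene lengths equal the whole span from start to end. Of 972 protein-coding genes lying wholly inside other genes' spans, 85.1% had 0 counts, beside 18.8% of 17104 with no exon in another span. Listed positions matched GENCODE M21 on GRCm38 for 2.2% of genes while span lengths matched for 98.1%, so coordinates here come from GENCODE M21 or RefSeq.

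Counts were tested with edgeR 4.0.16 (R 4.3.3; glmQLFit and glmQLFTest, TMM normalization, filterByExpr with a minimum count of 10 and a minimum total of 15), with 13485 genes tested and p-values adjusted by Benjamini-Hochberg over all of them. A gene was called when its adjusted p was no higher than 0.05 with a log2 fold change of 0.58 or more in either direction. All 6 samples entered the fit, with no covariate. Depth was 24863611 to 31713704 counts per sample, and floors for a count of 0 use 3 counts and cover counting error only. Alternatives were DESeq2 1.42.0, limma 3.58.1 (voom), other scalings and filters, a replicate block, and leaving out libraries. No pair of samples was identical.

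Pathway genes were given in full, with each sample's value, when the unadjusted p was under 0.05 or the groups did not overlap, and for Wnt5a, Fzd1, Ror2, Lrp6, Tcf7l2, Ctnnb1, Axin2, Lef1 and Tcf7. Sfrp1 was added after its values were seen. Of the other pathway genes, the 10 with the smallest unadjusted p were named. Start regions were searched in Python 3.11.15. The genes, lists and tests were chosen with earlier results of these data known.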

Additional observations from a re-analysis of the deposited data

How the results depend on the processing

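None of the 37 tested pathway genes was called under any of 17 alternatives to the edgeR fit. The edgeR fit itself called 0 of all 13485 genes, with a smallest adjusted p of 0.144, while DESeq2 on all genes with a count called 0.584%. With 1 library left out of the edgeR fit, Slc16a7 was not called either (adjusted p of 0.242 to 0.765). With edgeR a lack of calls was thus not particular to the pathway genes. Of 548 values of the tested pathway genes across the alternative fits, 528 kept their direction and 20, of 12 genes, turned. Leaving out 1 library at a time gave log2 fold changes of -0.04 to 0.09 for Axin1, -0.49 to 0.05 for Axin2, -0.97 to 0.02 for Dkk3, -0.12 to 0.05 for Dvl2, -0.06 to 0.08 for Lrp5, -0.47 to 0.05 for Rnf43, -0.69 to 0.81 for Ror1, -0.20 to 0.03 for Ryk, -0.18 to 1.58 for Sfrp1, -1.93 to 0.02 for Wnt10b, -0.42 to 0.38 for Wnt7b and -0.20 to 0.01 for Wnt9a. With limma-voom Ror1 had 0.11 and Wnt7b 0.05. Without both MCT2 CO replicate 3 and MCT2 KO replicate 2, the values were 0.09 for Wnt10b, 0.13 for Wnt7b, -0.15 for Dvl2 and 1.70 for Sfrp1. The count at an unadjusted p under 0.05 was 6 to 10 when 1 library was left out. Of these, 5 to 9 were lower and 0 or 1 higher, beside 3.11% to 6.24% and 2.47% to 6.24% of all genes. The count was lowest without MCT2 CO replicate 3 and without MCT2 KO replicate 3. It was 5 without both MCT2 CO replicate 3 and MCT2 KO replicate 2, an alternative added after the data were seen. Genes without overlap numbered 9 with DESeq2 size factors (24.3% beside 15.8% of all genes, both directions) and 10 with upper-quartile scaling (27.0% beside 15.8%). They numbered 13 to 16 when 1 library was left out, 35.1% to 43.2% beside 22.0% to 31.7% of all genes. DESeq2, whether or not low genes were filtered, called 2 other pathway genes and also called Slc16a7 at the same log2 fold change of -1.05; the cause was not tested. Deviations from the group means of samples with the same replicate number had correlations of 0.216, -0.247 and -0.161. Between different numbers they ran from -0.212 to 0.292, the highest for MCT2 CO replicate 3 with MCT2 KO replicate 2. The numbers were therefore not taken as pairs, and any other pairing was not tested. With the number as a replicate block, 8 pathway genes were at an unadjusted p under 0.05 and 0 were called. The median log2 fold change of all genes moved by no more than 0.01 under any scaling. Ligands and inhibitors with few counts, such as Wnt10b with 87 in all, have standard errors that limit what could be detected.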
